A study of Mus musculus with 5 samples.

Results

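Voltage-gated sodium channels, voltage-gated calcium channels and the hyperpolarisation-activated HCN channels set how spinal neurons fire, and 44 mouse genes encode their pore and auxiliary subunits. The 44 genes were taken by symbol from the 55471 gene identifiers of the count table, as protein-coding genes of the GRCm38 annotation named Scn, Cacna, Cacnb, Cacng or Hcn. They comprise 10 sodium channel pore genes, 4 sodium channel beta subunit genes, 10 calcium channel pore genes, 4 alpha2delta subunit genes, 4 calcium channel beta subunit genes, 8 gamma subunit genes and 4 HCN genes. Their levels were compared between spinal cords of Lhx1os knockout (KO) mice, with 2 libraries, and wild type (WT) mice, with 3 libraries. All mice were resting males of strain C57BL/6J aged 3 months. KO mice had the genotype Lhx1os -/-, made with Cas9, one guide RNA directed to the second exon of this long non-coding RNA gene, and a donor oligonucleotide carrying a synthetic polyadenylation signal and MAZ elements to stop transcription. The labels do not say how many founder lines the KO mice came from. The series title ties the KO to altered motor neurons and impaired locomotion, so the comparison asks whether the channel genes of the cord differ between the genotypes.

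A sodium channel consists of a large pore protein that opens on depolarisation and drives the upstroke of the action potential, with smaller beta subunits that tune its gating and surface level. A calcium channel has a comparable pore protein. High-voltage types assemble with an intracellular beta subunit and an extracellular alpha2delta subunit and trigger transmitter release or enter calcium signalling, whereas low-voltage T types support burst firing. HCN channels open on hyperpolarisation, conduct both sodium and potassium, and steady the resting potential and rhythmic firing. Most gamma subunit genes encode TARPs, auxiliary proteins of AMPA-type glutamate receptors rather than of calcium channels.

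The KO libraries held 16384033 and 15973063 counts, and the WT libraries 17125606, 19437533 and 16086041. Lhx1os itself had 13 and 11 counts in the KO libraries, against 56, 66 and 51 in the WT libraries, which follows the labels. The difference of −2.13 in log2 fold change (SE 0.28) had an adjusted p of 0.0589 in edgeR's quasi-likelihood test. All 8 general neuronal markers were counted in every library, as spinal cord should give, with a summed level of 6525 and 6354 CPM in KO and 6413, 6098 and 5997 CPM in WT. CPM is a count scaled to the size of its library. Over 12 lists of cell type markers, 0 of 91 tested genes passed over all genes in edgeR. With an unadjusted p under 0.05, 5 were higher in KO (3.49% of all tested genes) and 11 lower (4.07% of all). Of those 11, 5 were markers of oligodendrocyte precursors, a list that summed to 557 and 538 CPM in KO and 631, 617 and 623 CPM in WT. A library set apart from the rest was WT replicate 2. It was the highest of the 5 libraries for all 10 marker genes of dorsal root ganglion sensory neurons, which summed to 21.2 and 18.9 CPM in KO and to 17.0, 48.1 and 22.2 CPM in WT. Drgx, a transcription factor gene also active in dorsal horn neurons, made up most of that sum in the other 4 libraries. Values without this library are given beside the results that it moved most.

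Among the most abundant of the 44 genes was the auxiliary gene Scn4b, at 116 CPM per kb of exon in KO and 107 in WT. The pacemaker channel gene Hcn2 stood at 90.8 CPM per kb in KO and 78.4 in WT, and Cacng7, a TARP gene, at 62.8 in KO and 60.2 in WT. The most abundant pore genes of sodium channels were Scn1a, at 38.1 CPM per kb in KO and 37.0 in WT, and Scn8a, at 27.5 in KO and 24.7 in WT. Calcium channel pore genes stood lower. The highest of the 8 tested were Cacna1a, at 9.04 CPM per kb in KO and 8.35 in WT, and Cacna1g, at 8.67 in KO and 8.38 in WT. Cacna1c was the lowest of the 8, at 2.84 in KO and 2.62 in WT. At the foot of the order Scn4a, Cacna1s, Cacna1f, Cacng1 and Cacng6 stayed under 0.05 CPM per kb in both genotypes. Scn8a and Cacng2, neighbours in the order, differed by less than the spread between WT libraries.

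**Figure D1:**
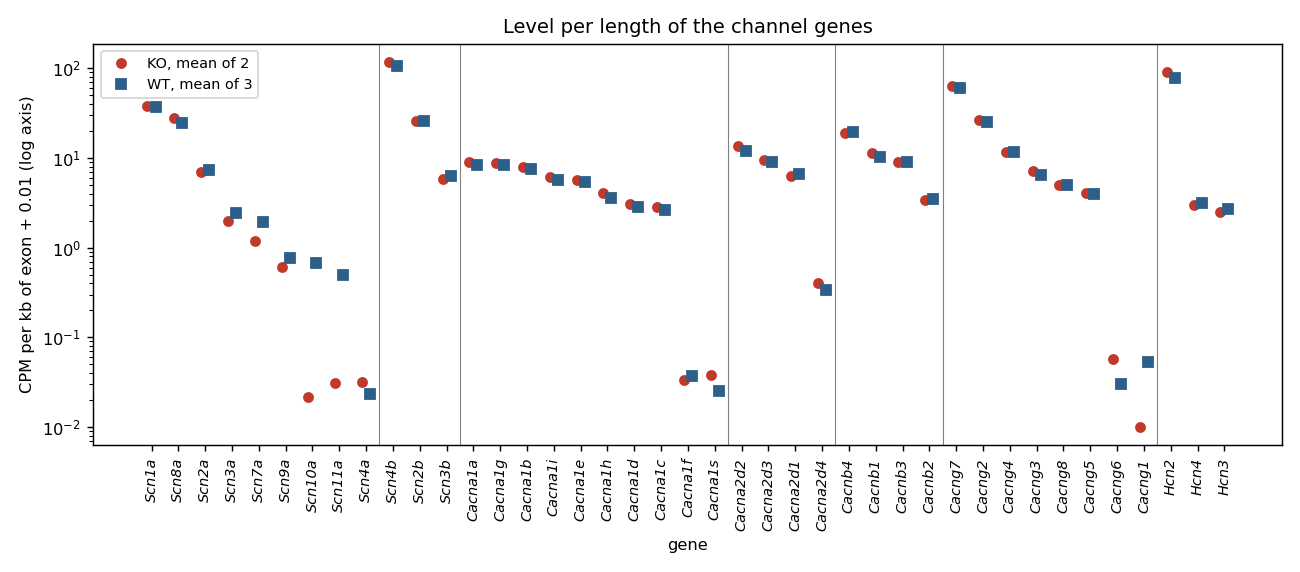
Mean level per exon length (CPM per kb of exon + 0.01, log axis) of 41 of the 44 genes in KO (circles, mean of 2 libraries) and WT (squares, mean of 3 libraries), by role group from sodium channel pore genes on the left to HCN genes on the right. The 2 genotypes lie on top of each other for most genes, and Scn10a and Scn11a stand higher in WT through 1 library.

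None of the channel genes differed between the genotypes past the adjusted threshold of 0.05. Of the 44 genes, 37 had enough counts to be tested among 16052 genes. In edgeR 0 of the 37 passed, as did 0 in DESeq2 and 0 in limma-voom, where 0.0187% of all tested genes passed in edgeR. The adjusted p-values of the 37 genes ran from 0.586 to 0.998. At an unadjusted p under 0.05 there were 3 of the 37, or 8.11%, a share near the 7.57% of all tested genes. Scn3a was the 1 lower in KO, where 4.07% of all tested genes were, and Cacna2d2 was among the 2 higher in KO, where 3.49% were. DESeq2, which tested all 44 genes, gave 4 at that unadjusted level, among them Scn3a and Hcn2 but not Cacna2d2. Scn10a was also among them, with 97.8% of its counts in WT replicate 2. The method limma-voom gave 4 of the 37, among them Scn3a, Cacna2d2 and Hcn2. The shares of all genes at that level under these methods were not counted, so these numbers of genes have no baseline here. The median log2 fold change of the 37 genes was 0.045, beside 0.0044 for all tested genes, and 25 of the 37 (67.6%) lay above 0, beside 51.3% of all. For 6 of the 37 (16.2%) the genotypes did not overlap, beside 24.9% of all tested genes. KO lay above WT for 5 of them, among which were Scn8a, Cacna2d2, Cacna2d4 and Hcn2 (12.9% of all tested genes), and below WT for 1, Scn3a (12% of all). The 95% interval of the difference stayed within 1.5-fold in both directions for 33 of the 37 (89.2%), beside 71.4% of all tested genes. Scn7a, Scn9a and Cacna2d4 were among those whose interval went beyond it.

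**Figure D2:**
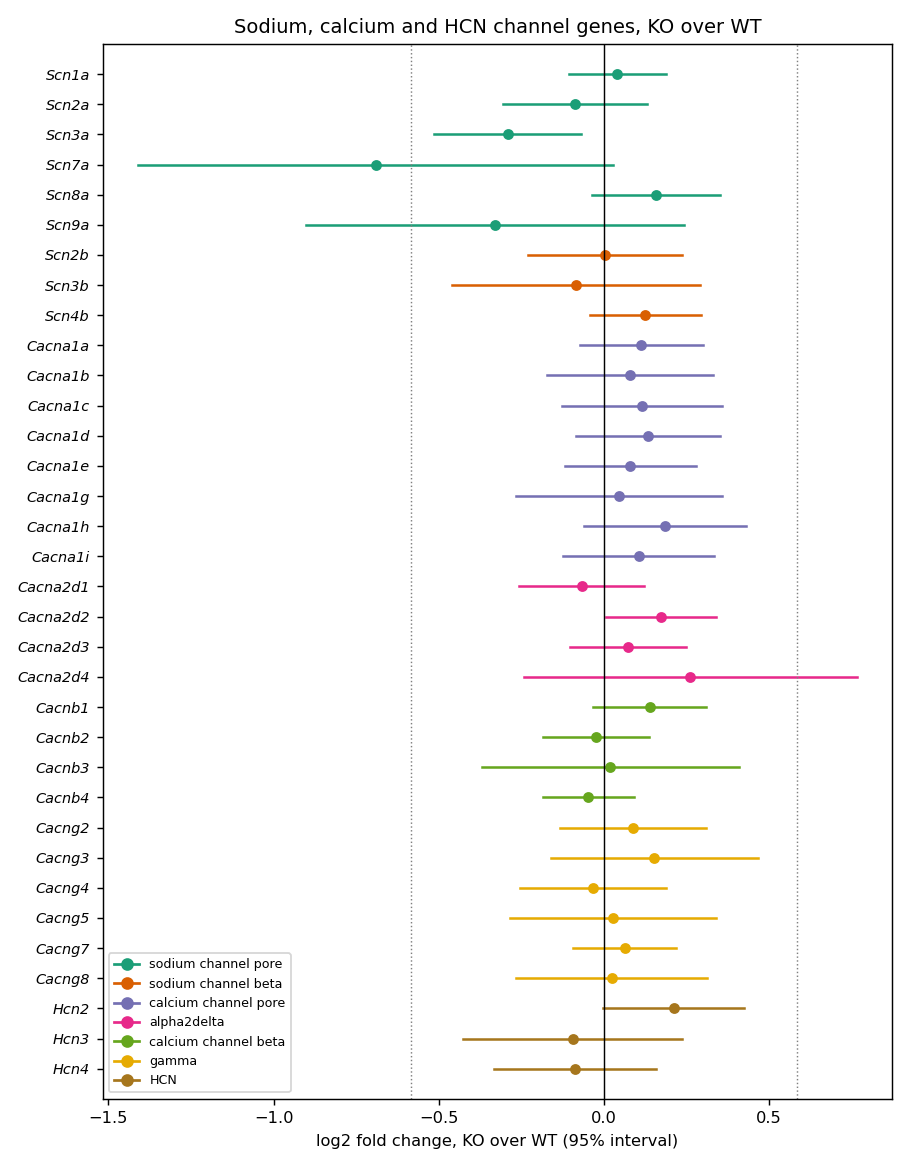
Log2 fold change, KO over WT, with its 95% interval for 34 of the 37 tested channel genes, coloured by role group. Dotted lines mark 1.5-fold in either direction, and the intervals of Scn7a, Scn9a and Cacna2d4 cross them.

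The count of 3 genes at an unadjusted p under 0.05 depended on single libraries. Leaving out WT replicate 2 gave 9, where 10.2% of all tested genes reached that level, and leaving out WT replicate 1 gave 7, where 9.28% did. Leaving out WT replicate 3 gave 1 (4.9% of all tested genes), KO replicate 1 gave 0 (4.82%) and KO replicate 2 gave 1 (5.75%). With WT replicate 2 left out, 30 of the 37 log2 fold changes lay above 0, beside 51.6% of all tested genes. That library was the highest WT library for 27 of the 37, so leaving it out tended to raise these values. In each of these 5 comparisons 0 channel genes passed the adjusted threshold. In bulk tissue, fewer cells of a type and less RNA per cell cannot be told apart.

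Scn1a and Scn8a, the main sodium channel pore genes of mature central neurons, made up most of the sodium pore level. Scn1a, whose protein is prominent in inhibitory neurons and in motor neurons, had 441 and 407 CPM in KO and 439, 399 and 399 CPM in WT. The genotypes overlapped, and the log2 fold change was 0.041 (SE 0.066; adjusted p = 0.904, edgeR). Scn8a, the channel gene of nodes of Ranvier and axon initial segments, had 446 and 421 CPM in KO and 419, 409 and 338 CPM in WT. Both KO libraries lay above all 3 WT libraries by a small margin over WT replicate 1, with the log2 fold change at 0.16 (SE 0.087; adjusted p = 0.715, edgeR). It was 0.063 without WT replicate 3, the lowest value with any library left out, and 0.21 without WT replicate 1, the highest. Per exon length, Scn1a held 49.7 ± 1.33% of the summed sodium pore level in KO (SD, n = 2) and 49.1 ± 3.69% in WT (SD, n = 3). Its share was 50.6 and 48.7% in the KO libraries and 51.6, 44.8 and 50.9% in the WT libraries, so without WT replicate 2 both WT values lay above both KO values. Without division by exon length the difference in the Scn1a share was −0.21 percentage points, against 0.60 per length. Scn8a held 35.9 ± 0.399% in KO and 32.6 ± 2.18% in WT. Scn2a, a gene of unmyelinated axons and developing neurons, held 9.09 ± 1.19% in KO and 9.79 ± 1.28% in WT, with a fold change of −0.087 on the log2 scale (SE 0.10).

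Scn3a had the smallest p-value of the 37 tested genes. It encodes the pore that predominates before birth and stays low in adult nervous tissue. It lies on chromosome 2 from 65457118 to 65567627 in GRCm38, minus strand. It had 24.2 and 25.1 CPM in KO, against 26.8, 31.2 and 32.4 CPM in WT. Both KO libraries were below every WT library, and WT replicate 1 was the WT library closest to them. The log2 fold change was −0.29 (SE 0.10; 95% interval −0.51 to −0.070), which did not pass over all genes (adjusted p = 0.586, edgeR). With each library left out in turn it ranged between −0.37 and −0.24, negative in all 5 cases.

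Scn7a, which encodes a sodium-sensing channel of glia and Schwann cells, had the largest difference among the tested channel genes and a wide spread between WT libraries. It had 7.79 and 9.63 CPM in KO, against 7.56, 20.2 and 14.2 CPM in WT. WT replicate 1 lay below both KO libraries, so the genotypes overlapped. The log2 fold change was −0.69 (SE 0.32; adjusted p = 0.673, edgeR), and it was −0.32 without WT replicate 2 and −0.99 (adjusted p = 0.0574) without WT replicate 1. The summed markers of Schwann cells stood at 171 and 276 CPM in KO and 132, 258 and 324 CPM in WT. Those of meningeal fibroblasts summed to 252 and 262 CPM in KO and 208, 397 and 469 CPM in WT. In both lists, as for Scn7a, WT replicate 1 was the lowest library, but WT replicate 3 rather than WT replicate 2 was the highest. All 8 genes of each list had counts in every library, and the part of these tissues in the Scn7a values was not tested.

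Scn10a and Scn11a, pore genes of pain-sensing neurons of the sensory ganglia, were counted almost wholly in a single library. Both lie on the minus strand of chromosome 9 in GRCm38, Scn10a from 119608456 to 119719322 and Scn11a from 119753759 to 119825456. Scn10a had 2 and 1 counts in KO and 2, 306 and 2 counts in WT. Scn11a had 2 and 2 counts in KO and 1, 167 and 1 counts in WT. WT replicate 2 thus held 97.8% of all Scn10a counts and 96.5% of all Scn11a counts of the 5 libraries. The other 4 libraries, KO and WT alike, lay between 1 and 2 counts for both genes. Neither gene passed the filter on low counts. Without that filter edgeR called Scn10a lower in KO (log2 fold change −5.78, adjusted p = 0.0278) but not Scn11a (−4.52, adjusted p = 0.0719). Those values rest on WT replicate 2, since the remaining WT libraries had as few counts as the KO libraries. DESeq2 gave Scn10a an adjusted p of 0.944.

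The ganglion markers showed the same library. Avil, the gene of the sensory neuron protein advillin, had 1 and 7 counts in KO and 5, 196 and 7 counts in WT. Mrgprd, a receptor gene of skin-innervating nociceptors, had 0 and 0 counts in KO and 0, 41 and 1 in WT. Prdm12, a transcription factor gene of nociceptors, had 5 and 0 counts in KO and 1, 45 and 0 in WT. Trpv1, the capsaicin receptor gene, had 2 and 0 counts in KO and 2, 27 and 4 in WT. Outside WT replicate 2 these 4 markers were thus at or near 0 in both genotypes. A count of 0 allows up to 3 counts, or 0.184 and 0.187 CPM in the KO libraries and 0.178, 0.153 and 0.185 CPM in the WT libraries, for counting error only.

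Scn9a, a threshold channel gene of nociceptors, was highest in that library as well. It had 6.93 and 8.38 CPM in KO and 6.78, 13.4 and 8.43 CPM in WT. Its log2 fold change was −0.33 (SE 0.26), and 0.0089 without WT replicate 2. The sign of its difference thus turned with that library. Scn9a shares 180 of its 12772 exon bases with the antisense gene Gm13629, at a mean of 8.90 CPM. Its counts are uncertain to an extent that was not measured. Of the 7 tested sodium pore genes 5 had log2 fold changes below 0 with all libraries, and 3 of 7 without WT replicate 2. Scn4a, the skeletal muscle sodium channel gene, had 4 and 1 counts in KO and 2, 2 and 1 in WT and was not tested.

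**Figure D3:**
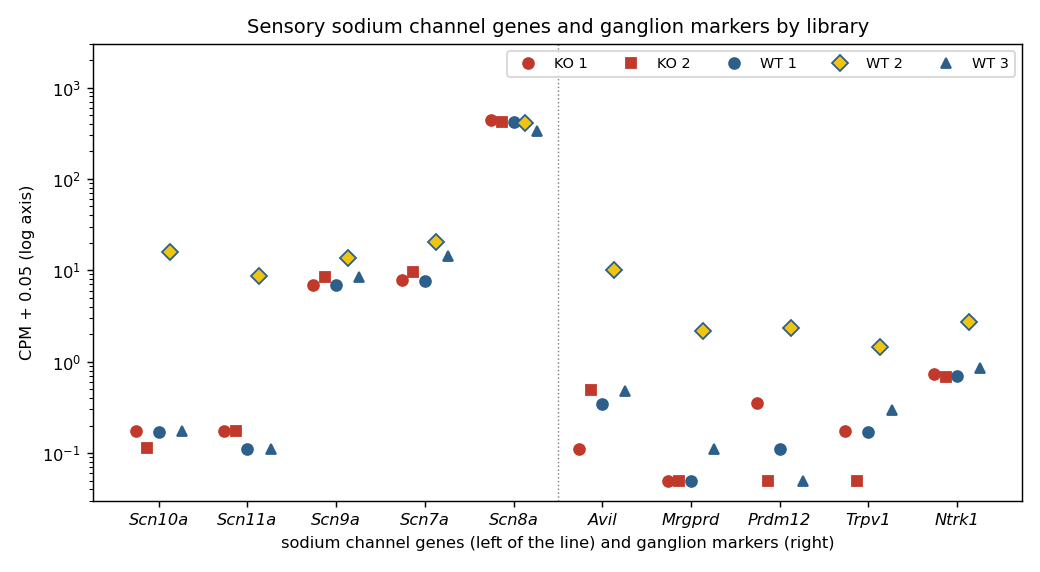
Level in each library (CPM + 0.05, log axis) of sodium channel pore genes, left of the dotted line, and of ganglion sensory neuron markers, right of it, with KO libraries in red, WT libraries in blue and WT replicate 2 as a yellow diamond. WT replicate 2 lies far above the other libraries for Scn10a, Scn11a, Avil, Mrgprd and Prdm12, while for Scn8a it lies within the range of the other libraries.

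The start-site regions of Hcn2 and Scn11a are shown because the genes are opposites in these data, Hcn2 abundant in all 5 libraries and Scn11a counted almost only in WT replicate 2. They are the 100 bases before the RefSeq start in GRCm38.p6, read on the gene's strand, for Hcn2 at chr10:79716534-79716633 (plus strand) and for Scn11a at chr9:119825457-119825556 (minus strand). Capitals mark each match to GGGCGG, the GC box, on either strand.
Hcn2: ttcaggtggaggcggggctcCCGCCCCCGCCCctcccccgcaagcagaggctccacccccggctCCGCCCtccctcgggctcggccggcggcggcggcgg
Scn11a: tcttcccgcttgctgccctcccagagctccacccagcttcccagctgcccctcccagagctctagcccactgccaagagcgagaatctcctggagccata
The Hcn2 stretch holds 13 CG dinucleotides and the Scn11a stretch 2. Over windows from 250 bases before to 50 after a start, RefSeq had 43 windows for 32 of the 44 genes. The GC box was in 41.9% of these and in 35.7% of all 32851 windows. The motif TATAAA, searched on both strands and sharing no bases with the GC box, was in 4.65% of the channel gene windows and in 13.6% of all windows. A match is a description of these letters only, and windows of a gene with several starts are not independent.

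The sodium pore genes Scn1a, Scn2a, Scn3a, Scn7a and Scn9a form a cluster on chromosome 2 between 65457118 and 66784914. Within it the log2 fold changes were 0.041 for Scn1a, −0.087 for Scn2a, −0.29 for Scn3a, −0.69 for Scn7a and −0.33 for Scn9a. Scn10a and Scn11a are likewise neighbours on chromosome 9. Pore genes of a cluster are close in sequence, and how reads that match several of them were counted is not given in the sources used here.

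The sodium channel beta subunit genes had 3 of 4 log2 fold changes above 0, with a median of 0.064. Scn4b, whose protein takes part in the resurgent current of fast-firing neurons, had 579 and 579 CPM in KO and 585, 522 and 487 CPM in WT. The genotypes overlapped because WT replicate 1 was the highest library, and the log2 fold change was 0.12 (SE 0.076; adjusted p = 0.730, edgeR). It was 0.062 without WT replicate 3 and 0.20 without WT replicate 1 (adjusted p = 0.334, edgeR). Scn2b and Scn3b had log2 fold changes of 0.0032 (SE 0.10) and −0.084 (SE 0.17).

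All 8 tested calcium channel pore genes had log2 fold changes above 0, between 0.045 and 0.18, and 0 of the 8 reached an unadjusted p of 0.05. Cacna1a, the P/Q-type gene of most presynaptic terminals, had 105 and 101 CPM in KO and 94.4, 106 and 85.9 CPM in WT. Its genotypes overlapped through WT replicate 2, and the log2 fold change was 0.11 (SE 0.083; adjusted p = 0.771, edgeR). It was 0.19 without WT replicate 2 and 0.041 without WT replicate 3. Cacna1g, a T-type gene, had 82.1 and 93.6 CPM in KO and 72.0, 106 and 77.2 CPM in WT. WT replicate 2 was again the highest of the 5 libraries, and the log2 fold change was 0.045 (SE 0.14). Cacna1h, another T-type gene, had the smallest p-value of the group, with 39.8 and 38.6 CPM in KO and 30.2, 39.998 and 33.1 CPM in WT. Its log2 fold change was 0.18 (SE 0.11; adjusted p = 0.730, edgeR), and it was 0.31 without WT replicate 2 and 0.099 without WT replicate 1.

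The comparison of the calcium pore genes moved with single libraries. WT replicate 2 was the highest WT library for all 8 of them, where 34.7% of all tested genes had their highest WT value in that library. With WT replicate 2 left out, both KO libraries lay above both remaining WT libraries for 7 of the 8 genes, all but Cacna1e, where 21.9% of all tested genes did so. The log2 fold changes were then between 0.15 and 0.31, with a median of 0.22 beside 0.0072 for all genes tested. At an unadjusted p under 0.05 there were then 6 of the 8, namely Cacna1a, Cacna1b, Cacna1c, Cacna1g, Cacna1h and Cacna1i, where 10.2% of all tested genes reached that level. None passed over all genes in edgeR, the lowest adjusted p being 0.334 for Cacna1h. This subset of genes and the omission of WT replicate 2 were singled out after the values were seen. Since that library was the highest of WT for all 8 genes, leaving it out was bound to raise their fold changes. The shares and the median over all genes are thus no like baseline for the values without it. The ganglion markers were likewise highest in WT replicate 2. They summed to 21.2 and 18.9 CPM in KO and to 17.0, 48.1 and 22.2 CPM in WT. The summed calcium pore level per kb was 46.1 and 48.7 CPM in KO and 40.6, 51.2 and 41.0 CPM in WT. The part of the ganglion markers in the calcium pore values was not tested. The summed level of the general neuronal markers in WT replicate 2, 6098 CPM, lay between those of the other WT libraries. Its members were divided, with Rbfox3, Syt1 and Eno2 highest of the WT libraries in WT replicate 2 and the other 5 highest in WT replicate 1.

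**Figure D4:**
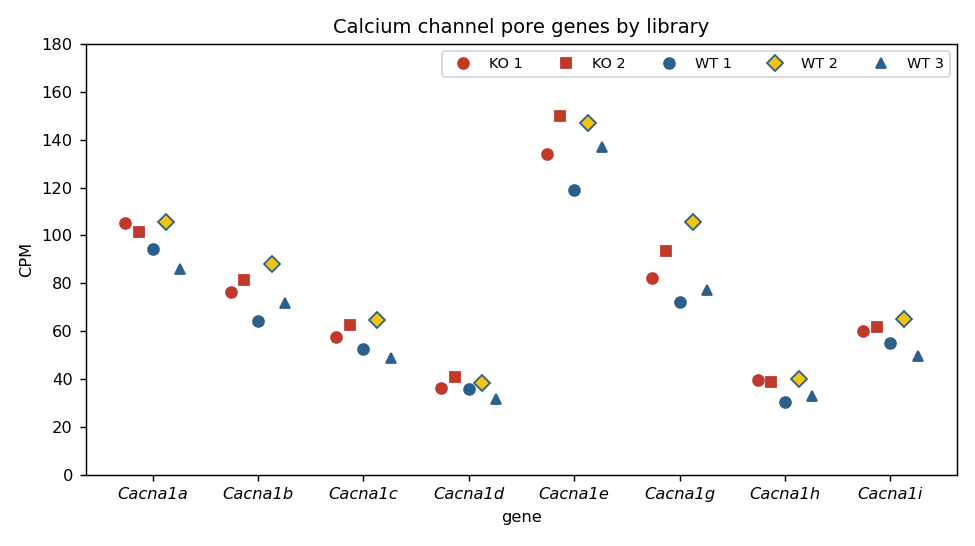
CPM of the 8 tested calcium channel pore genes in each library, KO in red and WT in blue, with WT replicate 2 as a yellow diamond. WT replicate 2 is the highest WT library for each gene, and the KO libraries lie above WT replicates 1 and 3 for each gene but Cacna1e.

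Per exon length, Cacna1a held 19.1 ± 1.23% of the summed level in KO (SD, n = 2) and 18.9 ± 1.27% in WT (SD, n = 3). Cacna1g held 18.3 ± 0.960% in KO and 18.8 ± 1.45% in WT, and Cacna1b, the N-type gene, 16.7 ± 0.109% in KO and 16.9 ± 0.876% in WT. The L-type genes Cacna1c and Cacna1d held 5.99 ± 0.117% and 6.46 ± 0.291% in KO, against 5.91 ± 0.264% and 6.34 ± 0.544% in WT. These differences were smaller than the SD between WT libraries. Cacna1h held 8.48 ± 0.516% in KO and 7.96 ± 0.313% in WT, a difference larger than the SD of WT and about that of KO. Cacna1d shares 589 of its 12621 exon bases with Chdh on the opposite strand, at a mean of 16.7 CPM. The counts of Cacna1d are uncertain to an extent that was not measured. Cacna1s, the skeletal muscle pore gene, had 1 and 5 counts in KO and 2, 0 and 3 in WT. Cacna1f, a retinal pore gene, had 5 and 2 counts in KO and 3, 6 and 4 in WT. Both were too low to be tested. Skeletal muscle markers summed to 18.9 and 7.19 CPM in KO and 8.21, 6.95 and 4.00 CPM in WT, highest in KO replicate 1. Cacna1s was highest in KO replicate 2 and Scn4a in KO replicate 1, both at 5 counts or fewer in every library. The part of muscle in these counts was not tested.

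Cacna2d2 was the alpha2delta gene with the smallest p-value. Alpha2delta proteins bring calcium channels to the surface and to terminals, and those of Cacna2d1 and Cacna2d2 bind gabapentin. The gene lies on chromosome 9 from 107399612 to 107529343, plus strand. It had 106 and 108 CPM in KO, against 93.1, 103 and 87.7 CPM in WT. Both KO libraries lay above all WT libraries, WT replicate 2 being close to them. The log2 fold change was 0.17 (SE 0.075; 95% interval 0.0078 to 0.34), which did not pass over all genes (adjusted p = 0.657, edgeR), and it was 0.24 without WT replicate 2. Cacna2d3 had 86.7 and 79.0 CPM in KO and 85.7, 76.9 and 73.8 CPM in WT, with overlapping genotypes and the log2 fold change at 0.072 (SE 0.079). Cacna2d4, a gene known from retinal photoreceptors, had 3.68 and 3.75 CPM in KO and 2.62, 3.68 and 2.96 CPM in WT. Its KO libraries lay above all WT libraries, KO replicate 1 level with WT replicate 2 at this rounding, and the log2 fold change was 0.26 (SE 0.23), or 0.41 without WT replicate 2 and 0.16 without WT replicate 1. Cacna2d1 stood at −0.068 (SE 0.085).

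The calcium channel beta subunit genes, which bind the pore inside the cell and aid its trafficking, overlapped between the genotypes for all 4. Cacnb4, the most abundant, had 175 and 161 CPM in KO and 175, 168 and 178 CPM in WT, with the log2 fold change at −0.047 (SE 0.062). Cacnb1, the beta subunit gene also used in skeletal muscle, had 48.3 and 53.6 CPM in KO and 44.3, 48.6 and 45.9 CPM in WT. Its log2 fold change was 0.14 (SE 0.077; adjusted p = 0.715, edgeR), with values of 0.060 with KO replicate 2 left out and 0.21 with KO replicate 1 left out. Cacnb2 stood at −0.024 (SE 0.072) and Cacnb3 at 0.020 (SE 0.17). Cacnb3 was spread from 26.3 to 44.9 CPM over the WT libraries, with both KO libraries inside that span. Cacnb4 shares 1433 of its 8963 exon bases with A430018G15Rik on the opposite strand, which stood at a mean of 1.99 CPM.

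Of the 8 gamma subunit genes, 6 were tested, and the genotypes overlapped for all 6. Cacng7 had 158 and 149 CPM in KO and 151, 154 and 136 CPM in WT, with the log2 fold change at 0.063 (SE 0.070), or 0.0052 without WT replicate 3. Cacng2, the gene of the TARP stargazin, had 155 and 138 CPM in KO and 155, 138 and 120.05 CPM in WT, with the log2 fold change at 0.088 (SE 0.10). In both genes WT replicate 3 was the lowest library. Cacng2 shares exon bases with A730060N03Rik on the opposite strand, which stood at a mean of 2.04 CPM. Cacng3, another TARP gene, had the smallest p-value of the group, with 19.6 and 20.4 CPM in KO and 14.4, 20.6 and 18.8 CPM in WT. Its log2 fold change was 0.15 (SE 0.14; adjusted p = 0.819, edgeR), and it was 0.019 without WT replicate 1 and 0.27 without WT replicate 2. The TARP genes Cacng4, Cacng5 and Cacng8 had log2 fold changes of −0.033 (SE 0.10), 0.027 (SE 0.14) and 0.024 (SE 0.13). Cacng1, the gamma subunit gene of the muscle calcium channel, had 0 and 0 counts in KO and 0, 2 and 1 in WT. Cacng6, its nearest relative, had 1 and 2 counts in KO and 2, 0 and 0 in WT.

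Hcn2 made up most of the HCN level in every library. It had 302 and 279 CPM in KO, against 277, 261 and 214 CPM in WT. Both KO libraries lay above all WT libraries, though KO replicate 2 and WT replicate 1 were nearly level, and WT replicate 3 was the lowest. The log2 fold change was 0.21 (SE 0.10; 95% interval −0.0031 to 0.43; adjusted p = 0.663, edgeR), and with each library left out in turn it was between 0.11 and 0.29. Per exon length, Hcn2 held 90.6 ± 0.531% of the HCN level in KO (SD, n = 2) and 88.9 ± 0.720% in WT (SD, n = 3). Hcn4, the member best known from the cardiac pacemaker, had 17.5 and 19.0 CPM in KO and 19.2, 21.3 and 17.6 CPM in WT, with the log2 fold change at −0.087 (SE 0.11), or −0.012 without WT replicate 2. Hcn3 stood at −0.095 (SE 0.15).

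**Figure D5:**
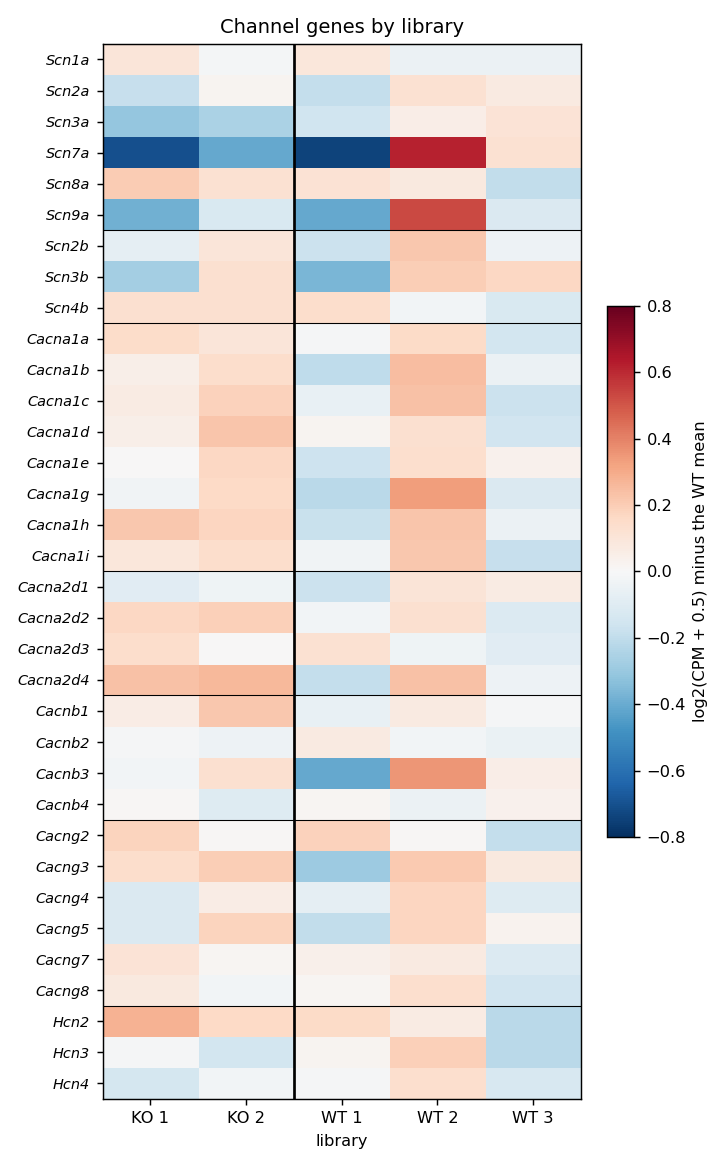
Level of 34 of the 37 tested channel genes in each library as log2(CPM + 0.5) minus the WT mean, red above and blue below it, with KO libraries left of the black line and role groups parted by horizontal lines. WT replicate 2 is high for Scn7a, Scn9a and the calcium pore genes, and WT replicate 3 is low for Hcn2.

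The WT libraries differed among themselves in the channel genes. WT replicate 2 was the highest WT library for 27 of the 37 tested genes (73.0%), beside 34.7% of all tested genes. WT replicate 3 was the lowest WT library for 20 of the 37, beside 32% of all tested genes, among them Hcn2, Hcn3 and Hcn4. Motor neuron markers summed to 513 and 394.5 CPM in KO and 485, 333 and 347 CPM in WT, with WT replicate 1 the highest WT library. The channel genes with WT replicate 1 as their highest WT library included Scn1a, Scn4b, Scn8a, Hcn2, Cacng2, Cacna2d3 and Cacnb2. The part of the sampled cell mixture in these differences was not tested.

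Of 38 partner genes of these channels, 37 were tested and 0 passed over all genes in either direction in edgeR, where 0.0187% of all tested genes passed. At an unadjusted p under 0.05, 2 were higher in KO, where 3.49% of all tested genes were, and 0 lower, where 4.07% were. Of the 37, 24 had log2 fold changes above 0, beside 51.3% of all tested genes, and their median was 0.025, beside 0.0044. Stac2, which encodes an adaptor of L-type calcium channels, had 102 and 104 CPM in KO and 87.6, 97.2 and 83.9 CPM in WT, with the log2 fold change at 0.20 (SE 0.072; adjusted p = 0.621, edgeR). Cabp1, whose protein binds calcium channel pores in place of calmodulin, had 87.7 and 84.9 CPM in KO and 78.1, 79.3 and 67.8 CPM in WT, with the log2 fold change at 0.20 (SE 0.077; adjusted p = 0.626, edgeR). Calm3, a calmodulin gene, stood at 0.10 (SE 0.055) and Nfasc, a cell adhesion gene of nodes of Ranvier and axon initial segments, at 0.12 (SE 0.069). Of the 37, only Stac2, Cabp1 and Calm3 had every KO library above every WT library, where 12.9% of all tested genes did so. No partner gene had every KO library below every WT library, where 12% of all tested genes did so. The sodium channel partners had 7 of 11 log2 fold changes above 0, the sodium leak channel complex 4 of 5, the calcium channel partners 9 of 14, the other AMPA receptor auxiliary subunits 3 of 5 and the HCN partners 1 of 2.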

How the data were processed

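Polyadenylated RNA of spinal cord was sequenced in 2 KO and 3 WT libraries, prepared with a stranded mRNA kit per the labels' protocols. The authors deposited whole-number gene counts that were not normalized. The submitters' processing notes name STAR 2.5.2b, HTSeq, cutadapt and Trimmomatic, with the build GRCm38. Neither the annotation release nor the strand setting is given in the sources used here, and 12 of the 44 genes share exon bases with another gene, 4 of them with one above 1 CPM. Symbols came from GENCODE M21 (55144 identifiers matched), and levels per length use the union of a gene's exons. CPM values are scaled by TMM factors. Genotypes were compared in R 4.3.3 with edgeR 4.0.16, using its quasi-likelihood test after filterByExpr (minimum count 10, minimum total 15), adjusted by Benjamini-Hochberg over 16052 genes. Standard errors are the log2 fold change divided by the square root of the F statistic, and intervals use the degrees of freedom of that test. The fitting code was tested on simulated counts. Alternatives were other scaling, filters and dispersion, DESeq2 1.42.0, limma-voom (limma 3.58.1), a replicate block and each library left out.

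Each count column carries its own number, which may stand for an animal. No label says that libraries came from separate litters or days, so p-values may not cover that spread and may measure technical spread. Libraries of a group differed beyond sampling noise (chi-square per degree of freedom 4.01 to 7.47). Members and lists were chosen with earlier results of these data known. Genes given in every library are, in each role group, the 2 of smallest p and the 2 of highest level per length, with every gene at an unadjusted p under 0.05; untested genes are given by counts, and of the partner genes the 4 of smallest p are named. The library values of Scn9a and the single ganglion markers were chosen after values were seen. Drgx, Nalf1 and Nalf2 were matched by older names. Single values of 3 channel genes are not reported here, though counts and medians over the genes include them.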

Additional observations from a re-analysis of the deposited data

How the results depend on the processing

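Over all genes, edgeR called 3 at an adjusted p under 0.05. The count was 6 with DESeq2 size factors, 96 without a filter on low counts, 12 with robust dispersion, 40 in DESeq2, 1 in limma-voom and 15 at an adjusted p under 0.1. It ranged from 0 to 58 with each library left out. The count of channel genes at an adjusted p under 0.05 was 0 in each alternative except 1, Scn10a, without the filter. The count at an unadjusted p under 0.05 was 3 with all libraries and 1 to 9 with each WT library left out. Without the filter it was 8 of 44, among them Scn10a and Scn11a, whose counts lay almost wholly in WT replicate 2. The share of all genes at that level without the filter was not counted, so this 8 has no baseline here. The titles number replicates without stating a pairing, and deviations of same-numbered libraries correlated at 0.0579 and 0.00203. With the replicate block edgeR called 25 genes and 0 channel genes, and Cacng2 (−0.0018), Cacng8 (−0.049), Scn2b (−0.012) and Scn3b (0.0074) were among those that turned in sign. Scn2b also turned without the filter (−0.0026) and in DESeq2 (−0.000255). In 18 of the 37 tested genes the sign held in all 13 alternatives. With each library left out, log2 fold changes of genes that turned ranged from −0.20 to 0.013 for Hcn3, −0.000199 to 0.14 for Cacna2d3, −0.054 to 0.012 for Cacnb2, −0.16 to 0.22 for Cacnb3, −0.11 to 0.0091 for Cacnb4, −0.019 to 0.22 for Cacna1b, −0.0040 to 0.16 for Cacna1e, −0.062 to 0.24 for Cacna1g, −0.0054 to 0.18 for Cacng2, −0.13 to 0.062 for Cacng4, −0.13 to 0.17 for Cacng5 and −0.053 to 0.10 for Cacng8. Among sodium channel genes they ranged from −0.083 to 0.12 for Scn2b, −0.30 to 0.10 for Scn3b, −0.021 to 0.10 for Scn1a, −0.19 to 0.011 for Scn2a and −0.53 to 0.0089 for Scn9a. With levels not divided by exon length, the share of Hcn2 in the HCN level was 3.17 percentage points higher in KO, against 1.66 per length. With 1 library of a genotype left, that library is assumed to vary like the other group. The causes of these shifts were not tested.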
